A study of Mus musculus with 2 samples.

Results

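The genes described here are 9 protein-coding genes that lay at the most connected RNA Pol II anchors of control mouse embryonic stem cells (ESCs), namely H3f3b, Galk1, Unk, Nop58, Taf12, Snx5, Rad51c, Tex14 and Arl4d. They were selected on the number of partners that their anchors had on the same chromosome in the control library, so those numbers are a description here and carry no test. An anchor is a peak of RNA Pol II signal, and an anchor belonged to a gene when it lay within 1 kb of the gene body in the GENCODE vM1 annotation of mm9. The 9 genes were among 12817 protein-coding genes with at least 1 pair of anchors, 12569 in the control and 11406 in the Ronin knockout (KO) library. Because H3f3b, Galk1 and Unk shared an anchor, and Rad51c and Tex14 another, the 9 genes stood for 6 loci, with 23 of 27757 anchors in control and 19 of 17539 in Ronin KO ESCs.

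The study used RNA Pol II ChIA-PET, in which DNA fragments that RNA Pol II holds close together are ligated. Each paired-end tag (PET) joining 2 anchors is counted here as 1 contact. The paper asked for several independent PETs before a pair was held to be of high confidence. For its Ronin map it set interchromosomal pairs aside, because these were reported to be noisier than pairs within a chromosome. All pairs are kept here, and how many of them are noise was not tested. Both conditions came from ESCs of the genotype CreERT2; Roninflox/flox, grown with serum and LIF on gelatine. Control cells received ethanol for 4 days and Ronin KO cells tamoxifen for 4 days, so the controls also carried the floxed alleles and CreERT2, which per the study's methods was expressed from the Rosa26 locus. The authors merged 2 experiments per condition into 1 set of pairs, which leaves no replicate spread to measure, and every test below compares 2 libraries by counting error alone.

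A promoter hub, as the term is used for such maps, is a stretch of active chromatin whose RNA Pol II contacts reach many other active promoters. RNA Pol II also transcribes most small nuclear RNA (snRNA) genes, which encode the RNA of the spliceosome, while many small nucleolar RNAs (snoRNAs), which guide modification and processing of ribosomal RNA, are cut from introns of host genes. In ESCs the genes of these basic functions are strongly transcribed.

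The hub genes serve functions that are not closely related. H3f3b encodes histone H3.3, the variant placed in chromatin outside replication, Taf12 one of the TBP-associated factors of TFIID, which binds core promoters, Nop58 a core protein of box C/D snoRNA particles, and Rad51c a protein of homologous recombination. Galk1 encodes galactokinase, Snx5 a sorting nexin of endosomal transport, and Arl4d a small GTPase related to ARF proteins. Unk encodes an RNA-binding zinc finger protein and Tex14 a protein of the intercellular bridges of germ cells.

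The anchors were wide, and 5 of the 6 loci held small RNA genes within them. The Nop58 anchor (chr1:59737014-59788332, 51.3 kb) held 4 snoRNA genes inside the gene, Snord70, SNORD70, SNORD11 and Snord11. The Snx5 anchor (chr2:144066372-144114084, 47.7 kb) also covered 8430406I07Rik and held SNORA70 and Snord17 inside Snx5. The Taf12 anchor (chr4:131821875-131834406, 12.5 kb) held the U11 snRNA gene 4.23 kb upstream of the Taf12 start. The Arl4d anchor (chr11:101515453-101530251, 14.8 kb) held a U2 snRNA gene 7.21 kb upstream of the Arl4d start. The leading Rad51c and Tex14 anchor (chr11:87213641-87244870, 31.2 kb) covered both starts, which lie 111 bp apart on opposite strands, and 2 U1 snRNA genes 17.9 and 21.7 kb inside Tex14. Only the anchor of H3f3b, Galk1, Unk and Itgb4 (chr11:115869720-115917024, 47.3 kb) held none.

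Promoter sequences of the members, 250 bases before to 50 bases after the RefSeq start, were matched to NCBIM37, the assembly of mm9. Each of the 10 windows was found once on the chromosome of its gene, the only one searched, and lay inside an anchor in both libraries. The windows of H3f3b, Taf12, Rad51c and Arl4d are given as examples of the short promoter elements found. Capitals mark the motifs found on either strand.
H3f3b promoter, chr11:115885769-115886068, minus strand: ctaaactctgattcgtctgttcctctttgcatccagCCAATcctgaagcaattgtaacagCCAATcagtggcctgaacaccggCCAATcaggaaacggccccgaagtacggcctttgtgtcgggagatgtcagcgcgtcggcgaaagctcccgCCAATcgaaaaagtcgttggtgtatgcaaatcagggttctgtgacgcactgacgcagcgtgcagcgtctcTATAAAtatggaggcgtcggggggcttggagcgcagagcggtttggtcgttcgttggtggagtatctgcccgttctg
Taf12 promoter, chr4:131830040-131830339, plus strand: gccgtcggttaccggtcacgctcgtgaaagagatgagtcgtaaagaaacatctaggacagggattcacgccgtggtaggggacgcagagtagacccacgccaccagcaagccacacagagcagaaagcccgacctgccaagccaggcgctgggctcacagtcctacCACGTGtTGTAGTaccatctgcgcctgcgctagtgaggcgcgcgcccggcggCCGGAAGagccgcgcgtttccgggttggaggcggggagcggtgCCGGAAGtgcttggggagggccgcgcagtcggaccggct
Rad51c promoter, chr11:87217959-87218258, minus strand: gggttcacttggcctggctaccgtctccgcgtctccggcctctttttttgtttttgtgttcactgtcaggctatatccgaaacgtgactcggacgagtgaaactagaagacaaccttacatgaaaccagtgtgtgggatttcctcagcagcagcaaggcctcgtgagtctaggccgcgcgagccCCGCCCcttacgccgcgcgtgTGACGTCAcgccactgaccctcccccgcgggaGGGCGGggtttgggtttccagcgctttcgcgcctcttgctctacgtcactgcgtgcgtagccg
Arl4d promoter, chr11:101526605-101526904, plus strand: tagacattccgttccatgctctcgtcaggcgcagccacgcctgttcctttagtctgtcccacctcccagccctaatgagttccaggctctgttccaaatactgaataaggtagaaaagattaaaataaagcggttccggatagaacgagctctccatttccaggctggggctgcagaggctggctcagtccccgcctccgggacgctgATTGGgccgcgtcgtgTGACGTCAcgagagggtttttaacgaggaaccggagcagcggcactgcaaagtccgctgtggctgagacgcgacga
The H3f3b window held 4 CCAAT boxes (CCAAT, in 37.4% of 32544 RefSeq promoters of that length) and a TATA box (TATAAA, 13.6%). The Taf12 window held an E box (CACGTG, 7.17%), 2 ETS sites (CCGGAAG, 8.91%) and the core of the Ronin-binding motif (TGTAGT, 10.3%). The cAMP response element TGACGTCA, present in 1.80% of promoters, was found in the Arl4d window, beside a CCAAT box, and in the first Rad51c window, beside 2 GC boxes (GGGCGG, 35.9%). The motif core also occurred in the windows of Unk and Tex14. The whole Ronin-binding motif was in none of the 10 windows and in no anchor of the 6 loci in either library, against 1.04% of all promoters, 1.79% of all control anchors and 4.10% of control anchors wider than 10 kb.

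The snRNA and snoRNA genes that repeat within or between hub anchors are given because contacts at 2 loci joined anchors that both carried a copy. The 2 U1 copies at Tex14 were identical over 164 bases and differed at 1 base from the U1 copy near Eapp. The 4 U3 snoRNA copies inside Tex14 were identical over 214 bases. Of 5 U2 copies near Arl4d, 4 were identical over 191 bases and the other differed at 1 base. A capital marks the base at which copies differed.
U1 at Tex14, chr11:87236369-87236532, plus strand: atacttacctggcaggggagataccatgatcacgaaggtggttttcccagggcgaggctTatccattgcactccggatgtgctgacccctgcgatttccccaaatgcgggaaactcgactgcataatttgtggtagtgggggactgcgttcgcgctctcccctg
U1 near Eapp, chr12:55797769-55797932, plus strand: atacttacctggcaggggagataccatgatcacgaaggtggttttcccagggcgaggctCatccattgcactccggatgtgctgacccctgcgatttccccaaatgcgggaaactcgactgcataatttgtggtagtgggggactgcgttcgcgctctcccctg
U3 in Tex14, chr11:87256739-87256952, plus strand: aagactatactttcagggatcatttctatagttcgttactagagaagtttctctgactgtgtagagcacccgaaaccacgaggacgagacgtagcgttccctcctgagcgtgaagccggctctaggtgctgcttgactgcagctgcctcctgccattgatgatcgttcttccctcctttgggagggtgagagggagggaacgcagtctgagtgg
U2 at Arl4d, chr11:101519552-101519742, plus strand: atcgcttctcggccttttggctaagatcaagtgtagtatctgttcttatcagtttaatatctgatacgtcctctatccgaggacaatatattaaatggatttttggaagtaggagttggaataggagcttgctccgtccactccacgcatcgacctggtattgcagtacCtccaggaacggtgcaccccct
U2 in an unnamed partner anchor of Arl4d, chr11:101466164-101466354, plus strand: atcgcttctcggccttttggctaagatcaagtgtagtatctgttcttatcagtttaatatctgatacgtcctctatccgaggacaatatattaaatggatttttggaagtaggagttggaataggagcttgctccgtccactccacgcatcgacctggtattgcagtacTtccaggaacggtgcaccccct

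Before the values, the libraries need 1 description. Within chromosomes, 24663 PETs joined 12330 pairs of anchors in control and 12140 PETs joined 5037 pairs in KO. Between chromosomes, 131434 PETs joined 115937 pairs in control and 53136 PETs joined 39291 pairs in KO. The KO library thus had 0.404 times the interchromosomal and 0.492 times the intrachromosomal PETs of control. Thap11, the gene of Ronin itself, kept contacts in both libraries (98 and 41 interchromosomal PETs), which does not measure its deletion. Of the ESC markers looked up, 9 had pairs (712 and 219 interchromosomal PETs), while none of 9 fibroblast markers had any and primitive endoderm markers had 10 and 8 PETs. Nearly all contacts of the hubs were single: 96.6% of their 1894 control pairs and 97.7% of their 617 KO pairs rested on 1 PET.

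The control library linked each hub to between 24 and 72 anchors on its own chromosome. Nop58, Snx5 and Taf12 each had 24 intrachromosomal partners (95% Poisson interval 15.4 to 35.7), Arl4d 26 (17.0 to 38.1), the H3f3b, Galk1 and Unk locus 32 (21.9 to 45.2) and the Rad51c and Tex14 locus 72 (56.3 to 90.7). Each count covers all anchors of a locus. Rad51c and Tex14 had 14 control anchors, Taf12 and the H3f3b locus 3 each and the others 1, so the counts are not of like units. Among single anchors, 4 had more intrachromosomal partners than the H3f3b anchor with 30, 6 more than the leading Rad51c and Tex14 anchor with 29, and 8 more than the Arl4d anchor with 26. The anchor with most partners in the library, at Gm10800 on chromosome 2, had 126. It was only 1.38 kb wide and also had 1650 interchromosomal partners, and why so narrow an anchor had so many was not tested. Of 8 control anchors with 24 partners, 3 belonged to the hubs and 5 to other genes, and the next anchors below had 23. The intrachromosomal values of the control library chose the genes.

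In the KO library the same loci had 10 (Nop58), 12 (Snx5), 7 (Taf12), 31 (Rad51c and Tex14), 5 (Arl4d) and 12 (H3f3b, Galk1 and Unk) intrachromosomal partners. All 6 were lower than in control, as were the intrachromosomal PETs, at 29 and 10 for Nop58, 25 and 12 for Snx5, 25 and 8 for Taf12, 79 and 32 for Rad51c and Tex14, 43 and 8 for Arl4d, and 37 and 13 for the H3f3b locus. The ratios of KO to control PETs ran from 0.186 at Arl4d (95% interval 0.0755 to 0.4003) to 0.480 at Snx5 (0.220 to 0.991), against 0.492 over the whole library. Contacts between anchors of the same locus are left out of these counts. Because control values chose the loci, the ratios were not tested.

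Partners on the same chromosome were mostly far away. In control, 146 of 202 partners (72.3%, exact binomial 95% interval 65.6 to 78.3) lay over 10 Mb from the hub and 26 (12.9%, 8.58 to 18.3) under 1 Mb, whereas all intrachromosomal pairs of the library split 50.3% and 36.7%. In the KO library 57 of 77 (74.0%) lay over 10 Mb and 11 (14.3%) under 1 Mb, against 44.4% and 42.6% of all pairs. The 2 sets are not counted alike. The library numbers hold every pair, while the hub numbers hold distinct partners without pairs inside a locus, all under 1 Mb. Such pairs numbered 13 in control and 12 in KO at Rad51c and Tex14, and 1 in each at the H3f3b locus. Taf12 stood nearest to its partners, with a control median of 6.70 Mb and 9 of 24 over 10 Mb, and Snx5 farthest, with 62.5 Mb and 20 of 24. The other control medians were 31.5 Mb at Nop58, 18.0 Mb at Rad51c and Tex14, 21.1 Mb at Arl4d and 21.4 Mb at H3f3b. Far partners thus took a similar share of both libraries, at 202 partners in control and 77 in KO.

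**Figure D1:**
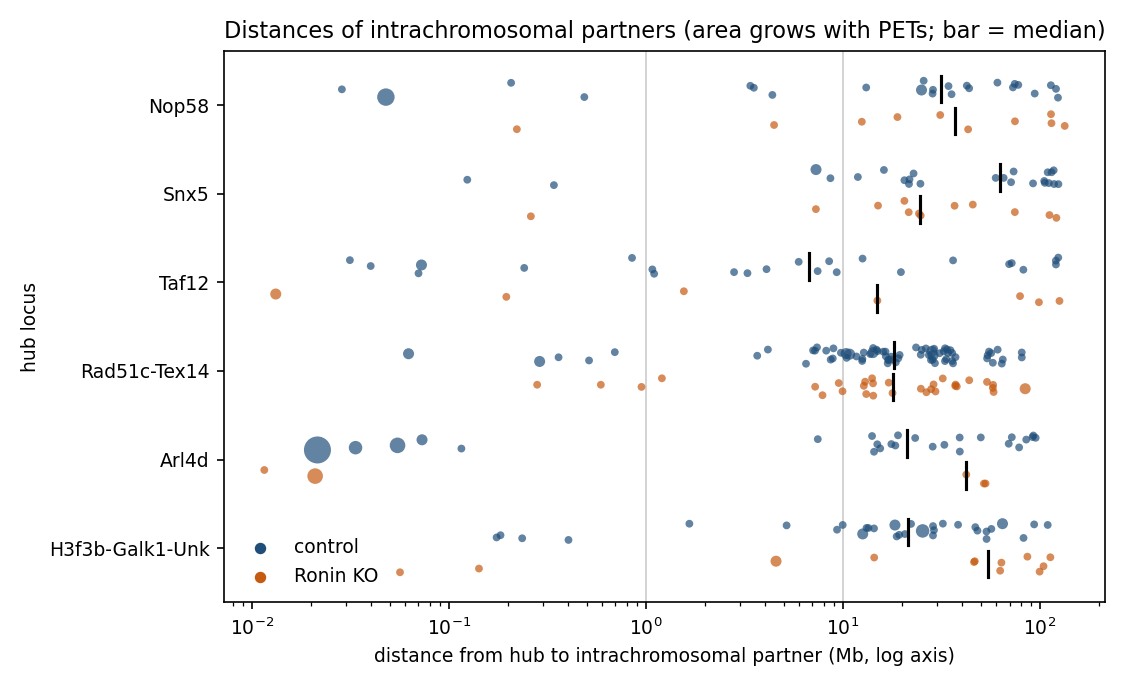
Distance in Mb (log axis) from each hub locus to each of its intrachromosomal partner anchors in the control (blue) and Ronin KO (orange) libraries; dot area grows with the number of PETs and a black bar is the median. Most dots lie beyond 10 Mb, 146 of 202 in control and 57 of 77 in Ronin KO, and the largest dot is within 0.1 Mb of Arl4d.

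Partners with more than 1 PET are given hub by hub. Nop58 reached Trip12, a ubiquitin ligase gene 25.0 Mb away, by 2 PETs in control and none in KO. Its nearest control partner was an unnamed anchor 28.6 kb away and its farthest Wdr26 at 123.3 Mb. Arl4d joined an anchor at Rdm1, 21.5 kb away, by 12 PETs in control and 4 in KO, a further Rdm1 anchor by 3 and 0, an unnamed anchor by 4 and 0, and Dhx8, an RNA helicase gene 73.0 kb away, by 2 and 0. The farthest control partner of Arl4d was Tbrg4, 95004 kb away.

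Taf12 joined Ythdf2, the gene of a reader of methylated RNA 72.5 kb away, by 2 PETs in control and none in KO, and Gmeb1, 13.2 kb away, by 2 in KO alone. Its control partners ran from Rab42-ps at 31.4 kb to Car8 at 123.7 Mb. Snx5 had 1 partner with more than 1 PET, Fkbp1a at 7.29 Mb (2 in control, 1 in KO), and its partners ran from Csrp2bp at 123.9 kb to Etl4 at 124.0 Mb. No Snx5 partner under 1 Mb had more than 1 PET. The H3f3b locus joined Tom1l1 at 25.4 Mb by 3 control PETs, Agxt2l2 at 64.5 Mb, Mllt6 at 18.3 Mb and an unnamed anchor by 2 each, and in KO Thoc4 at 4.57 Mb by 2. Its nearest control partner was Llgl2, a cell polarity gene 174.6 kb away, and its farthest Tbrg4 at 109.4 Mb. All H3f3b partners with more than 1 PET were thus beyond 1 Mb. At Rad51c and Tex14, the partners with 2 control PETs were Mtmr4 (62.4 kb, the nearest), Trim37, 1700001P01Rik, Cdk12, Arf1, an unnamed anchor with a U2 gene and the H3f3b hub, and the farthest was Myo1g at 80.8 Mb. In KO, Drg1 at 84.1 Mb was the partner with 2 PETs.

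Few partners recurred. Of 202 intrachromosomal control partners, 11 (5.45%) were joined to the same hub in KO, although 184 (91.1%) still had an anchor there. The Rad51c and Tex14 locus kept 8 of its 72, at Trim37, Rtn4, Ranbp17, Zfp867, BC046404, Pelp1, Lrrc59 and Rdm1. Snx5 kept Fkbp1a and Dnttip1, and Arl4d kept Rdm1. Nop58, Taf12 and the H3f3b locus kept none of 24, 24 and 32. Between chromosomes, 54 of 1639 partners (3.29%) recurred, while 1485 (90.6%) still had an anchor. At 1 PET per pair this depth cannot show whether a contact that was not seen again was absent. The share of all pairs of the library that recurred was not counted, so low recurrence is not shown to be particular to the hubs.

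A few PETs joined hubs to each other. Whether anchors with this many partners would be joined as often in any case was not tested. Of 15 possible pairs of the 6 loci, 6 were joined in control, by 7 PETs in all. The Rad51c and Tex14 locus met the H3f3b locus across 28.6 Mb of chromosome 11 with 2 PETs, and Arl4d met it across 14.4 Mb with 1. Between chromosomes, single PETs joined Nop58 with Snx5, Nop58 with the H3f3b locus, Snx5 with Taf12 and Snx5 with Arl4d. No pair of hubs was joined in the KO library. With 7 control PETs in all and the lower depth of the KO library, the difference was not tested.

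Most partners of every hub lay on other chromosomes. The share of PETs that joined a partner on the hub's own chromosome was counted without contacts inside a locus, in both libraries. In control it was 8.87% at Snx5 (exact binomial 95% interval 5.82 to 12.8), 9.25% at Rad51c and Tex14 and 11.1% at Taf12. It was 11.7% at Nop58, 16.0% at the H3f3b locus and 28.5% at Arl4d (21.4 to 36.4). With contacts inside its own locus, the Tex14 gene was at 16.1% in control. These control shares include the partners that chose the loci and were not compared, and 20 of the 43 Arl4d PETs behind its share joined anchors with an identical stretch of at least 100 bp. In KO the shares were 15.4% at Snx5, 12.0% at Rad51c and Tex14, 9.76% at Taf12, 13.7% at Nop58, 14.4% at the H3f3b locus and 16.3% at Arl4d. The KO shares, which the choice of genes did not use, were set per gene against the share of the whole KO library in a two-sided exact binomial test, with p adjusted after Benjamini and Hochberg over 4802 genes, of which 3.23% were called lower and 1.94% higher. Of the 8 hub genes with enough PETs none was called. The nearest to a call were Tex14 (24.0% with contacts inside its own locus, exact p = 0.0188, adjusted p = 0.164) and Taf12 (p = 0.0455, adjusted p = 0.275).

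Interchromosomal PETs were compared gene by gene between the libraries, because they did not enter the choice of genes. The anchors that have many partners on their own chromosome also have many elsewhere, however (median 198 interchromosomal partners at control anchors with at least 20 intrachromosomal ones, 2 over all control anchors), so the values are not free of that choice, and its part in the ratios was not tested. Each gene's KO share was set against that of all interchromosomal PETs (28.8%, a ratio of 0.404) by a two-sided exact binomial test, adjusted over 8602 genes with at least 10 PETs. Of these genes 255 (2.96%) were called lower and 226 (2.63%) higher, and the median ratio was 0.354. Of the 9 hub genes 3 were called lower and none higher, and the median ratio of the 9 was 0.370. Rad51c and Tex14 shared an anchor with 283 of the 285 Rad51c control PETs, so their calls are not separate measurements. The hub genes had 108 (Arl4d) to 773 (Tex14) control PETs, and genes with more PETs are called at smaller differences. With at least 20 PETs, 280 of 6306 genes were called lower.

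Snx5 had 257 interchromosomal PETs in control and 66 in KO, a ratio of 0.257 (95% interval 0.193 to 0.338, exact binomial test, adjusted p = 0.0182). Tex14 had 773 and 234, a ratio of 0.303 (0.260 to 0.351, exact binomial test, adjusted p = 0.00291). These 2 genes fell further than the library as a whole, though neither passed the test against the ratio of pairs with fewer than 10 PETs (0.340), with adjusted p of 0.326 and 0.551. Rad51c had 285 and 4, a ratio of 0.0140 (0.00380 to 0.0363, exact binomial test, adjusted p = 3.09e-33), which is the largest difference of the 9. That value rests on where the authors' peaks were cut, as the next paragraph shows, and with anchors of both libraries merged Rad51c had 285 and 90 PETs, a ratio of 0.316 (adjusted p = 0.396).

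The leading anchor of Rad51c and Tex14 was 1 peak of 31.2 kb in control and 2 peaks in KO, and in KO most of its contacts lay in the peak with the snRNA genes. There, the anchor with both starts (chr11:87213438-87226757, 13.3 kb) had 3 intrachromosomal partners and 4 interchromosomal PETs. The neighbouring anchor (chr11:87226806-87244852, 18.0 kb), which holds both U1 genes and a further annotated Tex14 start, had 14 intrachromosomal partners, a number that only 3 KO anchors exceeded, and 86 interchromosomal PETs. In the KO library, then, the term promoter hub did not describe the Rad51c start and the first Tex14 start, and in control the single peak did not allow them to be separated from the U1 genes.

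Further along Tex14, 4 control anchors each reached into a U3 copy at one edge. They had 15, 25, 13 and 15 intrachromosomal partners and 119, 148, 114 and 76 interchromosomal ones in control, and 9, 10, 8 and 5 and 42, 40, 32 and 24 in KO. The gaps between these neighbouring anchors, of 128, 124, 209 and 191 bp in control and 135, 108, 215 and 163 bp in KO, each overlapped a U3 copy. Per the study's methods only reads with a single best place in the genome were kept. Contacts between anchors of this locus took 69 PETs in control and 42 in KO, and of those 42 and 35 joined anchors that shared an identical stretch of at least 100 bp. Their part in the contacts was not tested.

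**Figure D2:**
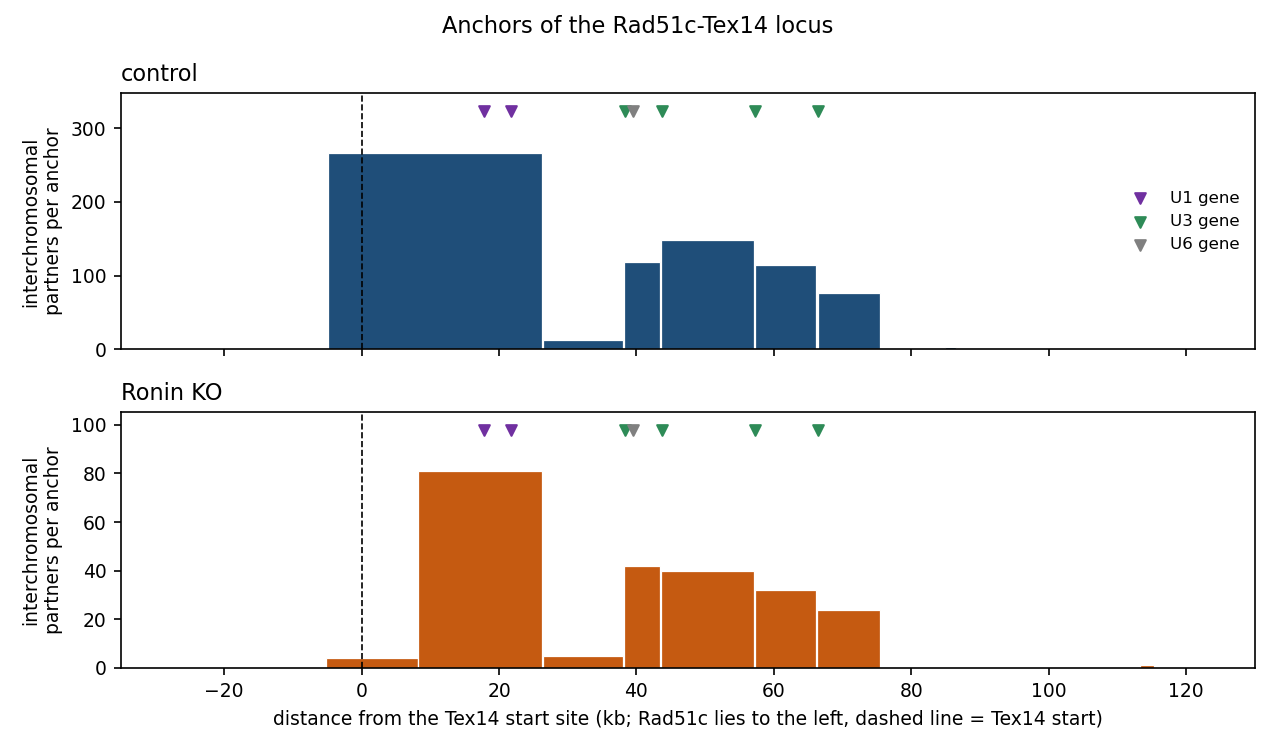
Interchromosomal partners per anchor (vertical axis) along the Rad51c and Tex14 locus, by distance in kb from the Tex14 start (dashed line), in control (top) and Ronin KO (bottom); each bar spans 1 anchor and triangles mark U1, U3 and U6 genes. The tallest bar, 267 partners, covers the start and the U1 genes in control, and in Ronin KO the start lies in a bar of 4 and the U1 genes in a bar of 81.

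The other 6 hub genes did not pass the test. Nop58 had 218 and 63 interchromosomal PETs, a ratio of 0.289 (0.215 to 0.384, exact binomial test, adjusted p = 0.176). Taf12 had 200 and 74 (0.370, 0.279 to 0.485), Galk1 191 and 73 (0.382, 0.288 to 0.503) and Arl4d 108 and 41 (0.380, 0.258 to 0.549). H3f3b had 178 and 73 (0.410, 0.308 to 0.541) and Unk 181 and 77 (0.425, 0.321 to 0.558), both slightly above the ratio of the library. Galk1, H3f3b and Unk shared an anchor with 178 of these control PETs, so their values are not separate measurements. Counting each locus once, the 6 loci had 1748 and 555 interchromosomal PETs, a ratio of 0.318 (95% interval 0.288 to 0.350). Rad51c and Tex14 supplied 775 and 234 of these PETs, and the ratios of single loci ran from 0.257 at Snx5 to 0.397 at the H3f3b locus. The interval covers counting error only, not the spread between loci, and is no test of the hubs as a set.

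**Figure D3:**
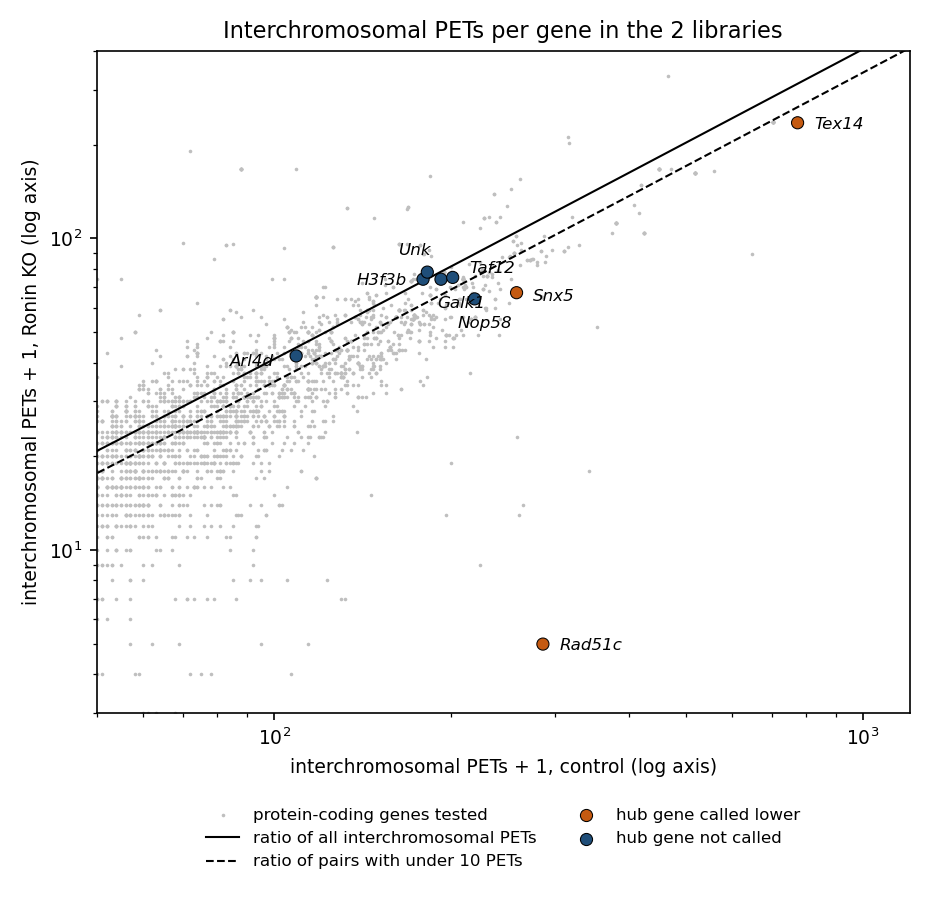
Interchromosomal PETs per protein-coding gene, plus 1, in control (horizontal, log axis) and Ronin KO (vertical, log axis); the axes cover the range of the hub genes, and genes outside it are not drawn. The solid line is the ratio of all interchromosomal PETs, 0.404, and the dashed line that of pairs with under 10 PETs, 0.340; Snx5, Tex14 and Rad51c (orange) were called lower, and Rad51c, with 4 PETs in Ronin KO, stands apart.

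Interchromosomal partners were spread over the genome. In control Nop58 reached 20 of 21 other chromosomes (the mitochondrial one and Y counted), Arl4d 18 and the others 19. The chromosome with most partners took 22 of 213 at Nop58 (chromosome 11, 10.3%), 22 of 192 at Taf12 (chromosome 11, 11.5%), 63 of 692 at Rad51c and Tex14 (chromosome 8, 9.10%) and 19 of 187 at H3f3b (chromosome 8, 10.2%). Summed over the hubs, chromosome 8 held 141 of 1639 partners (8.60%, 7.29 to 10.1) where it held 7.64% of all other pair ends, and chromosome X 35 (2.14%, 1.49 to 2.96) where it held 2.67%. Both library shares lay within the counting interval of the hubs. In KO, X held 5 of 534 partners (0.936%, 0.305 to 2.17) and 2.54% of all other pair ends, which lay above that interval. The KO chromosome with most partners was chromosome 2 for Nop58, with 13 of 63 (20.6%, 11.5 to 32.7) where it held 8.85% of other pair ends, below that interval. At the other 5 loci the leading KO chromosome took 9.23% to 17.5% of partners, with intervals that held its share of other pair ends. These shares are descriptions of chromosomes picked for their rank and were not tested.

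**Figure D4:**
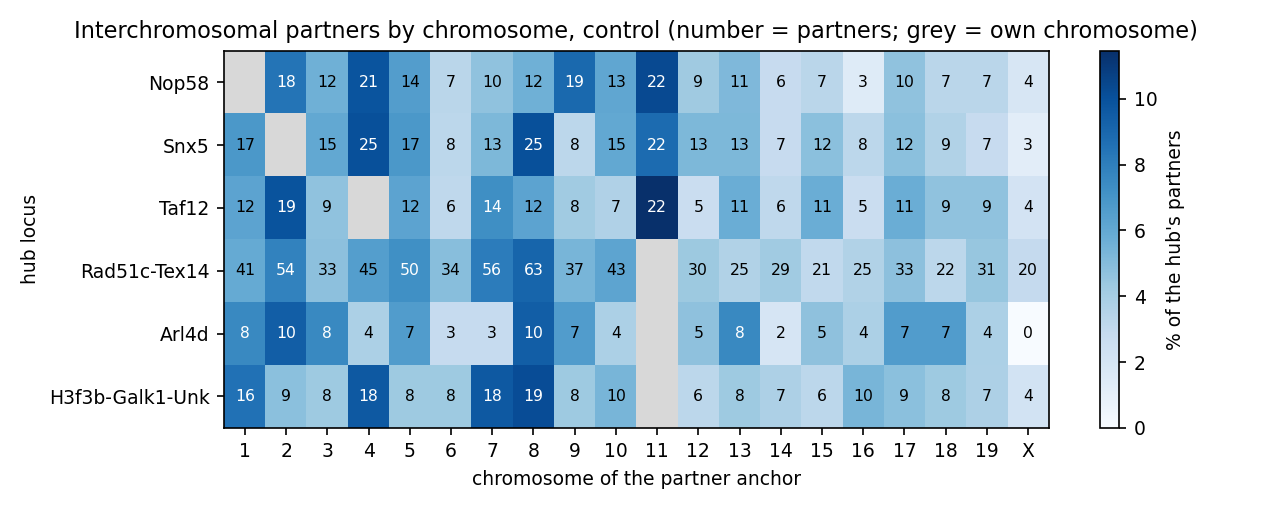
Interchromosomal partner anchors of each hub locus by chromosome in the control library; each cell gives the number of partners, its shade the percent of that hub's partners, and grey is the hub's own chromosome. No chromosome dominates a hub: the highest cell is Taf12 on chromosome 11, with 22 of 192 partners (11.5%), and Arl4d had no partner on X.

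Few partners between chromosomes had more than 2 PETs. The Rad51c and Tex14 locus joined an anchor at Eapp on chromosome 12, which carries a U1 copy, by 5 PETs in control and 4 in KO, and Rps24, Eif2s2 and Rpl13a by 4 PETs each in control and 0 in KO, and a further 11 anchors by 3 in control. Snx5 joined Tle4, a corepressor gene, by 3 PETs, Taf12 joined Gm10800 by 3 in control and 1 in KO, and the H3f3b locus joined Hist1h2bc, a replication-dependent histone H2B gene, by 3. In KO the H3f3b locus joined an unnamed anchor on chromosome 19 by 5. For Nop58 and Arl4d no interchromosomal partner had more than 2.

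Among intrachromosomal pairs that left the locus, those whose anchors shared an identical stretch of at least 100 bp were few at most hubs and many at Arl4d. At Arl4d they held 20 of 43 intrachromosomal PETs in control and 5 of 8 in KO, with up to 241 identical bases between the Arl4d and Rdm1 anchors, both of which carry U2 copies. At Snx5 they held 2 of 25, and at Nop58, Taf12, Rad51c and Tex14 and the H3f3b locus none, in control. Inside the Rad51c and Tex14 locus such pairs held 42 of 69 PETs in control and 35 of 42 in KO. Between chromosomes in control they held 11 of 257 PETs at Snx5, among them the 3 that joined Tle4. They held 22 of 775 at Rad51c and Tex14, 6 of 194 at the H3f3b locus and 1 each at Nop58, Taf12 and Arl4d. The part of identical stretches in all these contacts was not tested.

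Small RNA genes were common at highly connected anchors in general. In control, 381 of 27757 anchors (1.37%, exact binomial 95% interval 1.24 to 1.52) held an snRNA or snoRNA gene, 270 of 4583 anchors wider than 10 kb (5.89%, 5.23 to 6.61), 55 of 232 with 10 to 19 intrachromosomal partners (23.7%, 18.4 to 29.7) and 17 of 37 with at least 20 (45.9%, 29.5 to 63.1). The last class includes the hub anchors and was also wider, at a median of 44.7 kb against 3.28 kb over all anchors, so width and small RNA genes moved together with the number of partners and their parts were not tested.

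**Figure D5:**
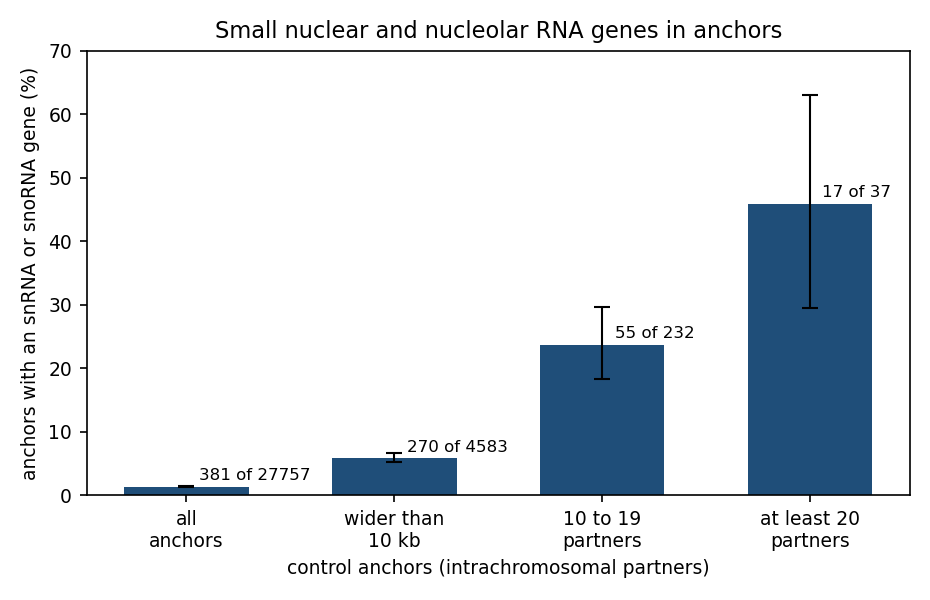
Percent of control anchors that hold an snRNA or snoRNA gene (vertical axis) among all anchors, anchors wider than 10 kb, and anchors with 10 to 19 or at least 20 intrachromosomal partners; bars start at 0, error lines are exact binomial 95% intervals and labels give counts. The share was 1.37% over all anchors and 45.9% in the most connected class.

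The partners themselves looked like those of other anchors. A protein-coding gene lay within 1 kb of 89.9% of hub partners in control (88.4 to 91.2) and of 90.0% of the ends of all pairs, and in KO of 90.5% (87.9 to 92.7) and 90.7%. An snRNA or snoRNA gene lay in 9.45% of control partners (8.15 to 10.9) and 9.58% of all ends. Partners shared by at least 3 hubs numbered 37 in control and 3 in KO. The Gm10800 anchor was a partner of 5 hubs, and the Hist1h4i and Wdr74 anchors, at histone genes and at a snoRNA host region, of 4.

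The genes whose control partners were most like those of a hub shared few of them. By the Jaccard index, the number of shared partner anchors over the number held by either, the closest to Nop58 was Pecr (0.0489), to Snx5 Gtf3c6 (0.0448), to Taf12 Tsen34 (0.0497), to Rad51c and Tex14 Gm10800 (0.0864), to Arl4d Pecr (0.0486) and to the H3f3b locus Set (0.0471). The next were Plk3 and B230325K18Rik for Nop58, Klf2 and Gm10800 for Snx5, Hist1h3b and Txn1 for Taf12, Hist1h3b and Hist1h4j for Rad51c and Tex14, Poldip3 and Myo10 for Arl4d, and Mcl1 and Ncl for H3f3b. These likenesses are over partners within 1 library and describe shared connectivity only.

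Relatives of the hub genes were mostly not called. In the histone H3.3 group 9 genes were tested, and Daxx, an H3.3 chaperone with 37 and 36 interchromosomal PETs in control and KO, was called higher (exact binomial test, adjusted p = 0.00720), while H3f3a, which encodes the same protein as H3f3b, had 73 and 23. In TFIID 15 annotated entries of the 14 listed genes were tested, as Taf9 has repeated entries. None was called, with Taf6, another TBP-associated factor, at 135 and 44. Among 7 tested genes of the box C/D snoRNA particle none was called, and Nop56, the partner of Nop58 in the particle, had 117 and 30.

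Of 9 SNX-BAR and retromer genes 1 was called, Snx5 itself, and the next, Snx32, had 115 and 48. Of 4 intercellular bridge genes 1 was called, Tex14, and Kif23 had 132 and 31. No call was made among 3 galactose metabolism genes (Ugp2 23 and 9), 3 ARL4 genes (Arl4a 25 and 9) and the 2 Unkempt genes (Unkl 12 and 5). The lists hold the hub genes, which were chosen first, so these counts are no separate evidence about the families.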

How the data were processed

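RNA Pol II contacts were taken from 1 control and 1 Ronin KO library of mouse ESCs, grouped by the treatment in the labels. Per the study's methods, the authors removed linkers (cutadapt), placed each mate on mm9 (Bowtie 1.1.1), keeping reads with a single best place, collapsed identical PETs, called peaks (MACS 1.4.2), removed short intrachromosomal PETs and merged 2 experiments per condition. For each pair of peaks the deposited files give its raw PET count, a count for either peak, a signed score in bp for the distance, and a p-value with its adjusted value. The PET counts per pair and, for 1 alternative, the authors' adjusted p-value were used. The p-value describes a pair, not a change between conditions.

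All pairs of either class, with any number of PETs, were kept. An anchor was given to each protein-coding gene of GENCODE vM1 within 1 kb, and the 9 genes were grouped into 6 loci by shared anchors. Genes with at least 10 PETs were tested by two-sided exact binomial tests with Benjamini-Hochberg adjustment over all of them, called at an adjusted p under 0.05. Intervals are exact Poisson, exact binomial (Clopper-Pearson) or exact conditional binomial at 95% and cover counting error only. The test of interchromosomal PETs was also run on simulated counts with known changes, and that of the intrachromosomal share was not. Anchors of both libraries counted as the same at an overlap of 1 bp. The members and lists were chosen with earlier results of these data known. Partners were named when they had at least 2 PETs on the same chromosome, at least 3 between chromosomes, or were found in both libraries, with the nearest and farthest of each hub, by the gene nearest the anchor centre. Of partners between chromosomes found in both libraries, only those with most PETs are named. Some results that this rule names are not reported here. Promoter windows are from RefSeq and sequences from NCBIM37. Python 3.11.15, numpy 2.4.6, pandas 2.3.3, scipy 1.17.1 and matplotlib 3.10.9 were used.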

Additional observations from a re-analysis of the deposited data

How the results depend on the processing

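No paired analysis was possible because each condition had 1 merged library. With pairs of at least 2 PETs, the PETs between hubs in control went from 7 to 0, recurring partners from 54 to 1 between chromosomes and from 11 to 1 within them, intrachromosomal partners from 202 to 14 in control and from 77 to 4 in KO, and partners under 1 Mb to 50% in both. The share of partners at a gene went to 96.8% in control and 85.7% in KO, only 575 genes were tested instead of 8602, of which 229 were called lower and 26 higher (255 and 226 before), and Tex14 was the 1 hub gene called for its intrachromosomal share in KO. Taking only anchors within 1 kb of a start site gave 73.4% and 78.5% of partners at a gene, and 5 kb around the gene 92.2% in control. With intrachromosomal pairs of an adjusted p under 0.05, 7 partners recurred.

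The calls depended on the expected share. Against equal shares all 9 hub genes were called lower, with H3f3b (0.410) and Unk (0.425) then on the other side of the expected ratio, and 5352 genes were lower and 91 higher. Against the share of intrachromosomal PETs 898 genes were lower. Against the share of pairs with fewer than 10 PETs, chosen after seeing the data, 104 genes were lower and 1 hub gene, Rad51c, remained. With anchors of both libraries merged, 40 genes were lower and 40 higher, and the Rad51c call was lost (an alternative added for the hubs after seeing the data). With start-site anchors only, Tex14 had 283 and 90 PETs and its call was lost (exact binomial test, adjusted p = 0.310). With at least 20 PETs, 251 genes were lower in intrachromosomal share, from 155. Calls were gained by Nop58 under 3 settings and by H3f3b, Unk, Galk1, Taf12 and Arl4d against equal shares. Ratios of uncalled hub genes changed side of the expected ratio under several settings: Galk1 (0.410) with anchors overlapping the gene body or at start sites, H3f3b and Unk against the intrachromosomal ratio (0.492), and Taf12, Galk1 and Arl4d against that of pairs with fewer than 10 PETs (0.340). With merged anchors H3f3b was at 0.382 and Unk at 0.397, below 0.404. With 1 PET behind most pairs, depth limits every statement on single partners.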
